A study of Mus musculus with 8 samples.

Results

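Cytosolic ribosomal protein genes encode the protein subunits of the ribosome that translates nuclear-encoded messages. They were taken from the deposited expression table by their symbols. The rule took every gene named Rpl or Rps with a number, optionally followed by the letter a, x or l and a digit. It also took the stalk genes Rplp0, Rplp1 and Rplp2, and Rpsa. The rule found 84 of 18561 genes, 52 of the large subunit and 32 of the small subunit. Among them were 7 paralogues or retrogene copies of a canonical gene, namely Rpl22l1, Rpl39l, Rpl3l, Rpl7l1, Rpl10l, Rps27l and Rpl32l. RefSeq annotates all 84 as protein-coding genes (assembly GRCm38.p6), on 19 chromosomes.

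The cells were enteric neural crest cells, which give rise to the gut's neurons and glia, sorted with antibodies to CD271 and CD57 from gastrointestinal tracts of mouse embryos of genotype Emb knockdown or WT at embryonic day 14.5. Each tube held about 200 cells, and there were 5 libraries labelled knockdown and 3 WT libraries. Emb encodes embigin, a membrane glycoprotein that accompanies monocarboxylate transporters. The sources used here do not say how the knockdown was made, in which cells it acted or whether embryos were pooled. The p-values therefore measure the spread between libraries, part of which may be technical.

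Totals were 20116607 to 26959265 expected counts a library, with at least 1 count in 15069 to 17033 genes. Emb stood at 353, 349, 37.2, 21.4 and 21.7 CPM (counts per 1000000 of the scaled library size) in the libraries labelled knockdown, against 16.9, 17.7 and 15.9 CPM in WT libraries, so no library labelled knockdown had less Emb than WT, and the targeted gene went against that label. The libraries labelled knockdown 1 and 2 stood apart. The summed level of 12 leukocyte markers was 17185 to 21597 CPM there and 1188 to 1982 CPM in the libraries labelled knockdown 3, 4 and 5, against 343 to 467 CPM in WT libraries. The summed level of 11 enteric neural crest progenitor markers was 167 to 211 CPM and 1006 to 1122 CPM in the same libraries, against 3019 to 3045 CPM in WT libraries, with Tfap2b at 0 in the libraries labelled knockdown 1 and 2. Sums of 8 neuron markers were 10.8 to 14.5 CPM, with Chrna3 at 0, and 428 to 810 CPM, against 1427 to 1817 CPM in WT. Fold changes are therefore given for all 8 libraries and for the 6 libraries without knockdown 1 and 2, and every call of a single gene as higher or lower by edgeR comes from the 6.

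Ribosomal proteins are made in near-equal numbers, assembled onto ribosomal RNA in the nucleolus and exported as a small subunit, which reads the message, and a large subunit, which forms peptide bonds. Their mRNAs are short and abundant, and in mammals they begin with a run of pyrimidines at the cap, the 5′ terminal oligopyrimidine (TOP) motif, through which mTOR complex 1 and Larp1 control their translation together. Mutations of single ribosomal protein genes are known for pigment changes in mice and for craniofacial changes in human Diamond-Blackfan anaemia, in tissues to which the neural crest contributes.

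Ribosomal protein mRNAs took a larger share of the transcripts in the libraries labelled knockdown 3, 4 and 5 than in any WT library. Their summed TPM (transcript share scaled to 1000000 a library, a level per length) was 20.8%, 18.7%, 27.5%, 29.5% and 29.4% of the total in the libraries labelled knockdown 1 to 5, against 21.4%, 16.2% and 16.6% in WT 1 to 3. The libraries labelled knockdown 1 and 2 lay below WT 1, so the groups overlapped with 8 libraries and did not with 6. Means were 25.2 ± 5.07% (SD, n = 5) for all libraries labelled knockdown and 28.8 ± 1.12% (SD, n = 3) for knockdown 3 to 5, against 18.1 ± 2.92% (SD, n = 3) for WT. By counts, which give long genes more weight, the shares were 8.35%, 7.33%, 10.8%, 12.0% and 10.6% in the libraries labelled knockdown, against 7.97%, 5.48% and 5.74% in WT. WT 1 was the highest WT library by both measures. TPM values sum to a fixed total, so a larger share of these genes leaves a smaller one for all others. In such bulk libraries more cells of a type and more RNA per cell cannot be told apart.

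**Figure D1:**
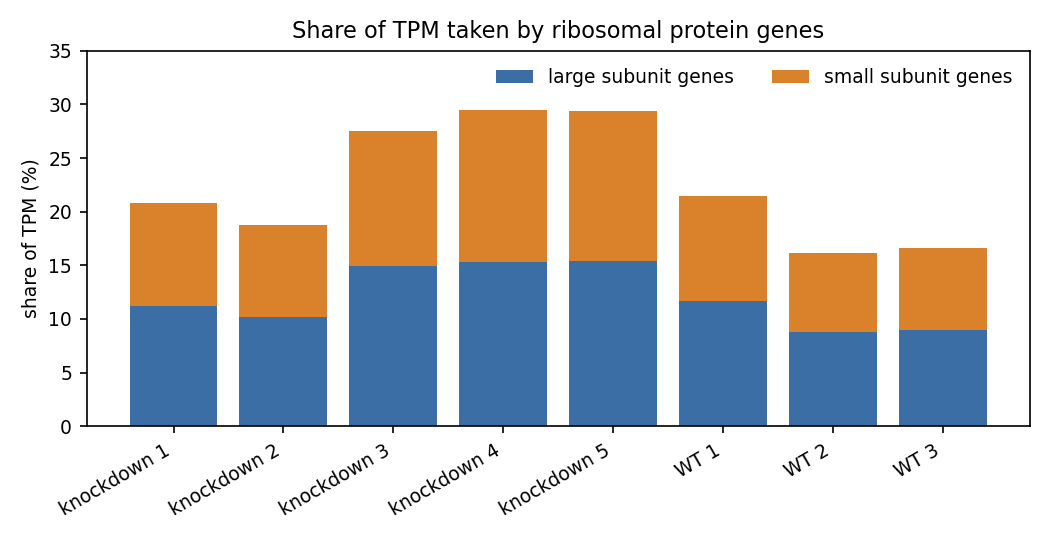
Summed TPM of the large and small subunit genes as a percentage of all TPM, 1 stacked bar for each library. The libraries labelled knockdown 3, 4 and 5 reach 27.5% to 29.5%, and the WT libraries 16.2% to 21.4%.

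Levels per length differed widely among the genes. By mean FPKM (fragments scaled to gene length and depth) over the 8 libraries, Rpl41, which encodes the shortest ribosomal protein, was the most abundant at 8949, followed by Rps19 at 6458 and Rpl32 at 6438. Rpl41 had 6539, 5227, 10551, 16346 and 19711 FPKM in the libraries labelled knockdown, against 5651, 3623 and 3944 FPKM in WT libraries. Its level in the library labelled knockdown 2 was below that in WT 1. At the other end, Rps6, which encodes the small subunit protein phosphorylated by S6 kinase, had the lowest mean of the canonical genes at 94.0 FPKM. Rps6 had 138, 126, 121, 123 and 134 CPM in the libraries labelled knockdown, against 103, 74.6 and 75.1 CPM in WT libraries. Low values of this kind are uncertain, because RefSeq lists 324 ribosomal protein pseudogenes in this assembly and reads shared with near-identical copies can be split or lost in counting. The lengths implied by the deposited values were also long for Rps20 (3232 bases), Rps15a (4921 bases) and Rpl22 (1988 bases), which lowers their FPKM.

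With all 8 libraries, nearly every ribosomal protein gene had a fold change above 0, but no single gene passed. The edgeR quasi-likelihood test, with a Benjamini-Hochberg adjusted p under 0.05 as the threshold, called 0 of 15411 genes (0%) and 0 of the 82 ribosomal protein genes that passed the low-count filter (all but Rpl3l and Rpl10l), with a smallest adjusted p of 0.137 among them. At an unadjusted p under 0.05, 73 of the 82 were higher, beside 12.7% of all genes tested. The other tools called more, with 63 of 82 higher by DESeq2 and 71 of 82 by limma voom with quality weights, beside 10.5% and 12.6% of all genes, and none lower, beside 3.91% and 11.6%. The median log2 fold change, knockdown over WT, was 0.94 over the 82 genes and 0.07 over all genes tested, and 81 of the 82 were above 0. For 50 of the 82 every library labelled knockdown was above every WT library in CPM, beside 10.8% of all genes, and for none was it below, beside 11.9%.

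With the 6 libraries, 56 of 81 ribosomal protein genes tested rose, 25 did not pass and none fell; Rpl39l was not tested here either. Over all 15115 genes tested, 11.1% rose and 9.37% fell. The median log2 fold change was 1.01, in a range of -0.53 to 2.16, and that of all genes was 0.02. CPM did not overlap between knockdown 3 to 5 and WT for 65 genes that were higher, beside 20.4% of all genes, and for 1 that was lower, Rpl7l1, beside 23%. DESeq2 called 67 higher and none lower, beside 16.2% and 13.8% of all genes, and voom 74 higher and 2 lower, beside 23.3% and 22.2%. The number of calls depended on which libraries were kept, over all genes as well as over these. Over all genes tested, calls in either direction fell from 3090 to 180 without knockdown 4, 417 without WT 2 and 294 without WT 3. Ribosomal protein genes called higher numbered 59 without knockdown 3, 59 without WT 1 and 40 without knockdown 5. Of all genes tested, 19.2%, 5.33% and 5.83% were called higher in these settings. Without knockdown 4 only Rps29 passed as higher (0.673% of all genes), without WT 3 only Rps29 (1.07%), and without WT 2 Rps29 and 5 others, Rpl37a, Rpl38, Rpl41, Rps20 and Rps21 (1.45%), although all 56 fold changes stayed positive each time. The adjusted p of the 56 genes ran 0.0494 to 0.166 without knockdown 4, 0.0300 to 0.188 without WT 2 and 0.0388 to 0.185 without WT 3. The calls closest to the threshold were Rps19 and Rpl18 inside it (adjusted p = 0.0456 and 0.0493) and Rps6 and Rpl36 outside it (0.0514 and 0.0576), all from edgeR. Genes that did not pass included Rpl3, Rpl4, Rpl5, Rpl6, Rpl7, Rpl7a, Rpl7l1, Rpl10, Rpl11, Rpl13, Rpl14, Rpl15, Rpl21, Rpl29, Rpl32l, Rpl36 and Rplp0 in the large subunit and Rps2, Rps3, Rps3a1, Rps4x, Rps6 and Rps18 in the small subunit.

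In the small subunit 25 of 32 genes rose with 6 libraries (median log2 fold change 1.14), and in the large subunit 31 of 49 rose (median 0.91). Over all genes tested 11.1% rose. With 8 libraries the medians were 1.04 for the small and 0.89 for the large subunit. The ratio of large to small subunit TPM was 1.17, 1.19, 1.19, 1.08 and 1.09 in the libraries labelled knockdown 1 to 5, against 1.19, 1.20 and 1.18 in WT libraries. It was therefore low in the libraries labelled knockdown 4 and 5 alone, and the difference between subunits was not tested.

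Fold changes differed more between classes of coding length than between the subunits. Ribosomal protein genes have a median coding length of 456 bases without the stop codon, 480 for the large and 445.5 for the small subunit. Below 400 bases, 15 of 16 large subunit genes rose in the 6 libraries (median log2 fold change 1.65), and so did 11 of 11 small subunit genes (median 1.52). Between 400 and 700 bases, 15 of 23 large and 13 of 15 small subunit genes rose, with medians of 0.90 and 1.12. At 700 bases or more, 1 of 9 large (Rpl8) and 1 of 6 small subunit genes (Rpsa) rose, with medians of 0.52 and 0.60. Over all genes tested, of any length, 11.1% rose. With 8 libraries the medians for large and small subunit genes were 1.42 and 1.36 in the shortest class, 0.84 and 0.98 in the middle one and 0.47 and 0.63 in the longest. Within a length class the medians of the subunits thus lay closer together than did those of the shortest and the longest class.

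Across the ribosomal protein genes, the log2 fold change was smaller at greater coding length. Spearman's rho was -0.82 with 8 libraries (81 genes) and -0.78 with 6 (80 genes), where it was -0.82 over 48 large and -0.70 over 32 small subunit genes. These are descriptions across genes, which share libraries and are not replicates. Over the other genes tested in 6 libraries it was 0.04 (14575 genes). With the gene length that the deposited counts and FPKM imply in place of coding length, the relation was looser. Spearman's rho was then -0.59 with 8 libraries (82 genes) and -0.59 with 6 (81 genes), where it was -0.67 over 49 large and -0.38 over 32 small subunit genes, and 0.13 over 14698 other genes.

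**Figure D2:**
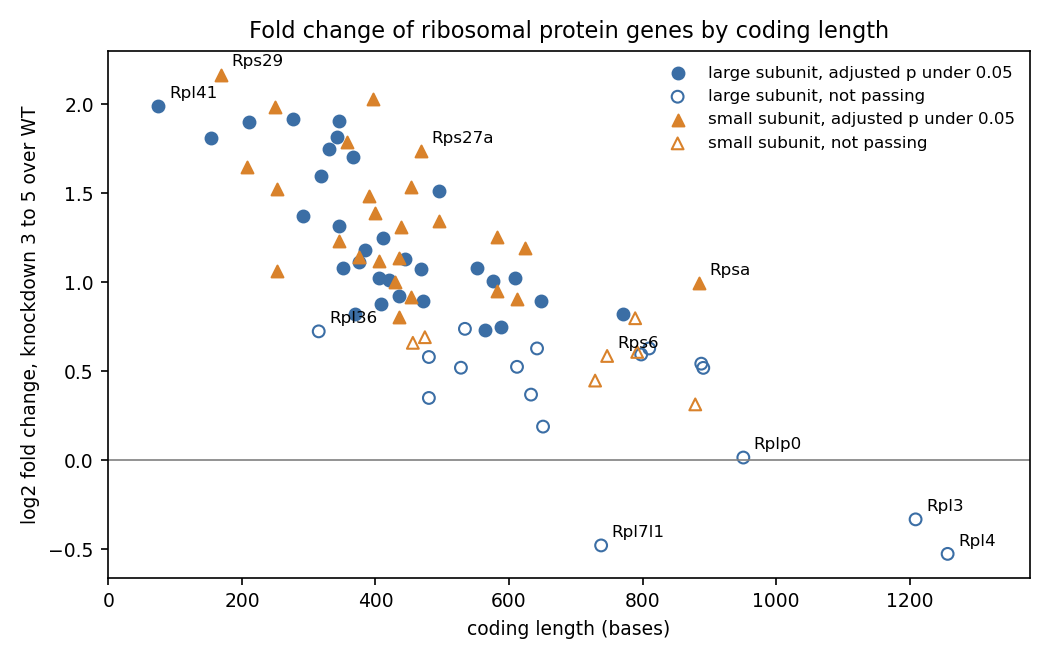
Log2 fold change of each ribosomal protein gene, knockdown 3 to 5 over WT, against coding length in bases, with filled symbols for an adjusted p under 0.05 (edgeR). The shortest genes lie near 2 and the longest, Rpl3 and Rpl4, at -0.33 and -0.53.

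Short genes outside the family also had high fold changes. By that implied gene length, 40 ribosomal protein genes under 500 bases had a median of 1.25 (log2 fold change, 6 libraries) and 36 of them rose, while 353 other genes of that length had a median of 0.95 with 46.5% rising. Between 500 and 1000 bases the medians were 0.89 for 26 ribosomal protein genes, 16 of which rose, and 0.28 for 1105 other genes, 17.3% of which rose. Between 1000 and 2000 bases they were 0.52 for 12 ribosomal protein genes, of which 2 rose, and -0.20 for 3594 other genes, of which 5.90% rose. The other genes of 4000 bases or more had a median of 0.38, so their order was not a simple one. Of the ribosomal protein genes with a known length, 67 of 82 were under 1000 bases, against 11.8% of all genes. The part of transcript length in the differences of the ribosomal protein genes was not tested.

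**Figure D3:**
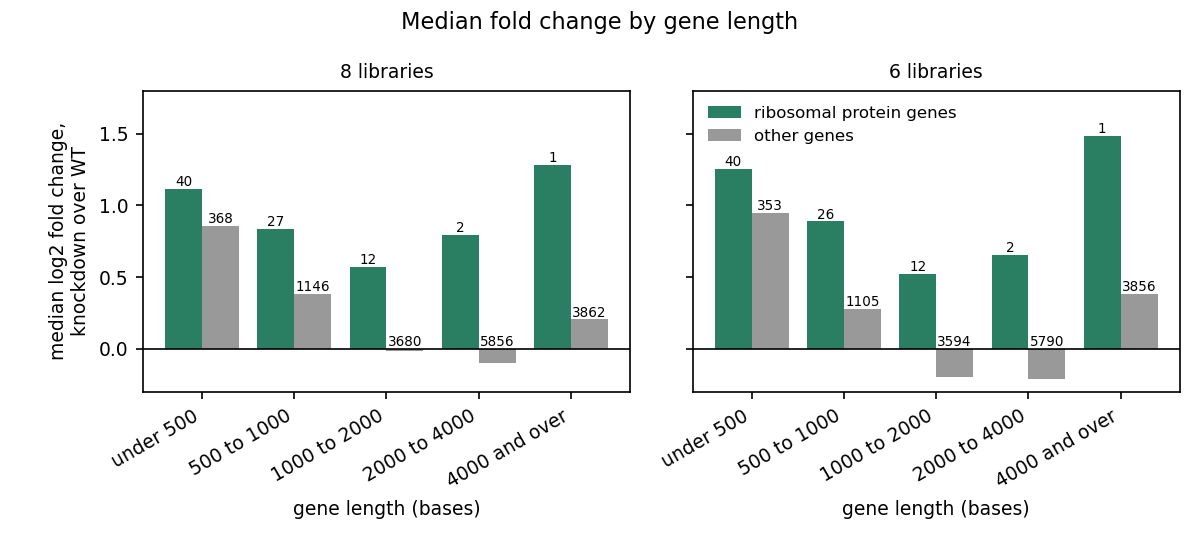
Median log2 fold change, knockdown over WT, of ribosomal protein genes and of other genes by gene length class in bases, with the number of genes above each bar; the left panel has all 8 libraries and the right one 6. In the right panel the class under 500 bases stands at 1.25 for ribosomal protein genes and 0.95 for other genes, and the class of 4000 bases and over holds a single ribosomal protein gene.

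The order by length was not the same in every library. The TPM of the 28 genes with a coding length under 400 bases divided by that of the 16 genes of 700 bases or more was 2.47, 2.02, 2.74, 3.78 and 5.28 in the libraries labelled knockdown 1 to 5, against 1.95, 1.57 and 1.62 in WT libraries. All 5 libraries labelled knockdown were above all 3 WT libraries, with knockdown 4 and 5 the highest and WT 1 the highest of its group. For the 77 canonical genes, each library's log2 CPM was set against the WT mean. The rank correlation of that difference with coding length was -0.72, -0.42, -0.74, -0.77 and -0.76 in the libraries labelled knockdown, against -0.65, 0.61 and 0.59 in WT 1 to 3. WT 1 thus shared the sign of the libraries labelled knockdown, and the WT libraries must differ among themselves in sign because they are set against their own mean. The size was not shared by all of them. In WT 1 the median difference was 0.58 for genes under 400 bases and 0.33 for those of 700 bases or more. In the libraries labelled knockdown 1 to 5 it was 1.27, 0.75, 1.41, 1.79 and 1.82 for the short genes and 0.67, 0.49, 0.62, 0.66 and 0.36 for the long ones. The short and the long genes thus lay about as far apart in knockdown 2 as in WT 1, and farther apart in the other 4.

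**Figure D4:**
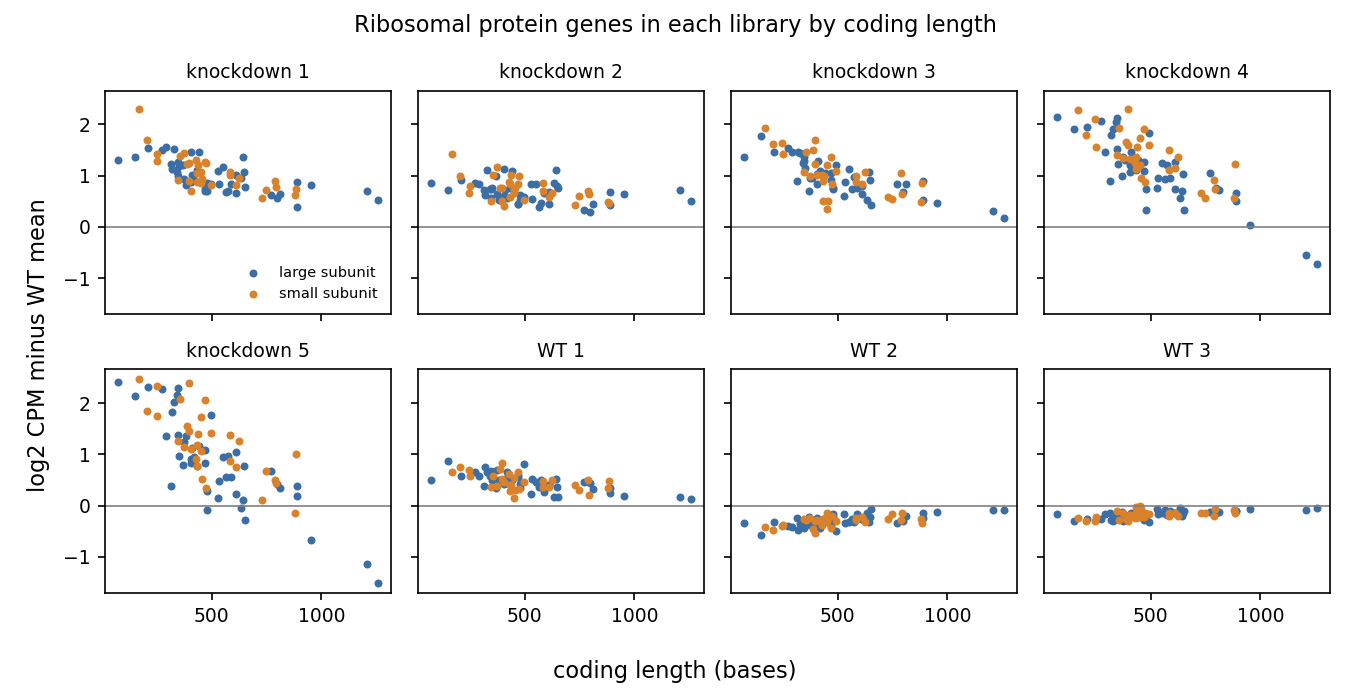
Log2 CPM of each of 77 canonical ribosomal protein genes minus its mean in WT, against coding length in bases, 1 panel for each library. Points slope downward in all 5 libraries labelled knockdown and in WT 1, and the longest genes lie below 0 in knockdown 4 and 5.

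Among the small subunit genes, Rps29, a zinc-binding protein of the head of the subunit, changed most. It lies at chr12:69157722-69159186 (GRCm38). Rps29 had 810, 442, 629, 799 and 910 CPM in the libraries labelled knockdown, against 260, 124 and 138 CPM in WT libraries. Every library labelled knockdown was above every WT library. Its log2 fold change was 2.16 ± 0.31 (SE, adjusted p = 0.0070, edgeR, 6 libraries) and 2.04 ± 0.36 with 8 libraries (adjusted p = 0.137).

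Rps21, a short small subunit protein, had 130, 83.7, 167, 231 and 271 CPM in the libraries labelled knockdown, against 86.3, 40.3 and 42.8 CPM in WT libraries. Knockdown 2 was below WT 1, and the other 4 were above all WT libraries. Its log2 fold change was 1.98 ± 0.33 with 6 libraries (adjusted p = 0.0104) and 1.64 ± 0.46 with 8 (adjusted p = 0.155). Rps20, which sits in the head, changed by 1.78 ± 0.30 (adjusted p = 0.0105), Rps26, at the mRNA exit channel, by 1.23 ± 0.22 (adjusted p = 0.0129) and Rps27, a zinc-finger protein, by 1.52 ± 0.27 (adjusted p = 0.0132), all by edgeR with 6 libraries. Without knockdown 4 the adjusted p of Rps29 was 0.0494, of Rps21 0.0588 and of Rps20 0.0595, and without WT 3 that of Rps26 was 0.0689 and that of Rps27 0.0677. Over all 8 libraries the log2 fold changes were 1.56 for Rps20, 1.04 for Rps26 and 1.36 for Rps27.

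The small subunit genes with the largest p did not pass. Rps2, a core protein near the mRNA entry channel, had 3450, 3129, 3143, 3298 and 2040 CPM in the libraries labelled knockdown, against 2840, 1875 and 2121 CPM in WT libraries. Its groups overlapped through knockdown 5 and WT 1, and its log2 fold change of 0.31 ± 0.26 did not pass (adjusted p = 0.409, edgeR, 6 libraries). Rps3, which also lies at the entry channel, had a log2 fold change of 0.45 ± 0.25 (adjusted p = 0.219), and Rps18, which contacts the large subunit, had 0.66 ± 0.23 (adjusted p = 0.0742). Rps6 had 0.59 ± 0.18 (adjusted p = 0.0514). The log2 fold changes with 8 libraries were 0.40 for Rps2, 0.45 for Rps3, 0.73 for Rps18 and 0.61 for Rps6. All 4 genes lay on the same side of 0 as those that rose. Rps18, with a coding length of 456 bases, is not a long gene, and Rpsa, the longest of the small subunit at 885 bases, rose.

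Rpsa, which encodes the laminin receptor precursor as well as a small subunit protein, had 1952, 1618, 2123, 2738 and 2376 CPM in the libraries labelled knockdown, against 1645, 928 and 1062 CPM in WT libraries. Only knockdown 2 was below WT 1. Rpsa rose with 6 libraries (log2 fold change 1.00 ± 0.26, adjusted p = 0.0310, edgeR). Rps19, the gene most often mutated in human Diamond-Blackfan anaemia, rose by 0.81 ± 0.24 (adjusted p = 0.0456) and did not pass on log2 FPKM, where its log2 fold change was 0.66. Rps27a, which encodes a small subunit protein fused to ubiquitin, rose by 1.74 ± 0.33 (adjusted p = 0.0142). Leaving out WT 3 moved the adjusted p of Rpsa to 0.130 and of Rps27a to 0.0714, and leaving out WT 2 moved that of Rps19 to 0.172. With 8 libraries the log2 fold changes were 0.84 for Rpsa, 0.85 for Rps19 and 1.48 for Rps27a.

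The large subunit genes with the smallest p had coding sequences under 400 bases. Rpl38, a protein required in mouse embryos for translation of a subset of Hox messages, had 180, 117, 169, 239 and 308 CPM in the libraries labelled knockdown, against 91.8, 49.4 and 51.4 CPM in WT libraries. All libraries labelled knockdown were above all WT libraries, and the log2 fold change was 1.90 ± 0.31 (adjusted p = 0.00996, edgeR, 6 libraries) and 1.66 ± 0.38 with 8 libraries (adjusted p = 0.137). Rpl41 had 2134, 1556, 2212, 3795 and 4568 CPM in the libraries labelled knockdown, against 1225, 680 and 768 CPM in WT libraries. In CPM, unlike FPKM, its groups did not overlap, and it rose by 1.99 ± 0.34 with 6 libraries (adjusted p = 0.0114). Rpl37a, a zinc-binding protein, rose by 1.92 ± 0.33 (adjusted p = 0.0120) and Rpl35a, a gene of Diamond-Blackfan anaemia, by 1.75 ± 0.31 (adjusted p = 0.0128). Without knockdown 4 the adjusted p was 0.0564 for Rpl38, 0.0629 for Rpl41, 0.0646 for Rpl37a and 0.0654 for Rpl35a. Over all 8 libraries the log2 fold changes were 1.68 for Rpl41, 1.65 for Rpl37a and 1.57 for Rpl35a.

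The longest large subunit genes went the other way in some libraries. Rpl3, which reaches towards the peptidyl transferase centre, had 2776, 2805, 2121, 1165 and 772 CPM in the libraries labelled knockdown, against 1905, 1606 and 1607 CPM in WT libraries. Knockdown 1 to 3 were above all WT libraries and knockdown 4 and 5 below them. Its log2 fold change was -0.33 ± 0.34 with 6 libraries (adjusted p = 0.504, edgeR) and 0.18 ± 0.43 with 8. Rpl4, which lines the exit tunnel and was chosen after its values were seen, had 3008, 2967, 2366, 1262 and 739 CPM in the libraries labelled knockdown, against 2280, 1981 and 2038 CPM in WT libraries. It showed the same split, with a log2 fold change of -0.53 ± 0.37 with 6 libraries (adjusted p = 0.332) and -0.02 ± 0.45 with 8. Without knockdown 3, Rpl3, Rpl4 and Rpl7l1 passed as lower by edgeR, beside 19.6% of all genes, at log2 fold changes of -0.83, -1.08 and -0.67 (adjusted p = 0.0230, 0.0132 and 0.0111). With all 6 libraries these 3 were the only ribosomal protein genes tested with a log2 fold change below 0.

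The long and the short stalk genes parted. Rplp0 encodes the base of the stalk that recruits elongation factors, and Rplp1 and Rplp2 encode the acidic proteins bound to it. Rplp0 had 4384, 3893, 3421, 2554 and 1566 CPM in the libraries labelled knockdown, against 2841, 2279 and 2355 CPM in WT libraries. Its values spanned the WT range, with a log2 fold change of 0.02 ± 0.29 (adjusted p = 0.977, edgeR, 6 libraries) that turned to -0.065 without a composition factor and to -0.15 on log2 FPKM. Rplp1 had 661, 528, 753, 1313 and 1411 CPM in the libraries labelled knockdown, against 472, 238 and 280 CPM in WT libraries, and rose by 1.81 ± 0.33 (adjusted p = 0.0133). Rplp2 rose by 1.90 ± 0.34 (adjusted p = 0.0133). Without knockdown 4 the adjusted p of Rplp1 was 0.0679 and that of Rplp2 0.0674. The log2 fold changes with 8 libraries were 0.34 for Rplp0, 1.5 for Rplp1 and 1.59 for Rplp2. The mean FPKM of Rplp1 and Rplp2 divided by that of Rplp0 was 0.666, 0.577, 1.01, 2.22 and 3.84 in the libraries labelled knockdown, against 0.726, 0.475 and 0.526 in WT libraries. Knockdown 3 to 5 exceeded all WT libraries, and knockdown 1 and 2 lay below WT 1.

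Genes of the 5S particle, Rpl5 and Rpl11, whose free proteins bind Mdm2 and so act on p53, did not pass. Rpl5 had 737, 763, 808, 891 and 737 CPM in the libraries labelled knockdown, against 669, 508 and 526 CPM in WT libraries. Its groups did not overlap, with a log2 fold change of 0.52 ± 0.19 (adjusted p = 0.0826, edgeR, 6 libraries). Rpl11 had 0.74 ± 0.27 (adjusted p = 0.0787). Rpl10, which joins the large subunit late in its maturation, had 3347, 2789, 2701, 2087 and 1395 CPM in the libraries labelled knockdown, against 1845, 1042 and 1121 CPM in WT libraries, and a log2 fold change of 0.63 ± 0.31 (adjusted p = 0.174). Knockdown 5 alone lay within the WT range. Rpl14, another large subunit protein, had 0.19 ± 0.23 (adjusted p = 0.577). With 8 libraries the log2 fold changes were 0.47 for Rpl5, 0.70 for Rpl11, 0.88 for Rpl10 and 0.45 for Rpl14.

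Paralogues were set against their canonical genes by the ratio of their FPKM within a library, which does not depend on the scaling between libraries. Of 6 pairs in the table, Rpl22l1 and Rpl22 were the only one whose groups did not overlap over all 8 libraries with both genes above the counting floor; with knockdown 3 to 5 alone, Rpl7l1 with Rpl7 and Rps27l with Rps27 did not overlap either. Rpl22 binds RNA at the surface of the large subunit and in mice represses its paralogue Rpl22l1. The ratio of Rpl22l1 to Rpl22 was 8.26, 8.49, 9.46, 11.2 and 10.5 in the libraries labelled knockdown, against 7.63, 7.37 and 7.76 in WT libraries. The log2 difference was 0.33 (exact two-sided permutation test over 56 splits, p = 0.0357, the smallest this design allows, and 0.107 after Benjamini-Hochberg adjustment over 6 pairs), and 0.45 with knockdown 3 to 5. All 5 libraries labelled knockdown were higher. Both genes rose in the 6 libraries, Rpl22l1 by 1.70 ± 0.30 (adjusted p = 0.0122, edgeR) and Rpl22 by 1.18 ± 0.25 (adjusted p = 0.0172), with an adjusted p of 0.0651 for Rpl22l1 without knockdown 4 and of 0.0852 for Rpl22 without WT 3. Over all 8 libraries the log2 fold changes were 1.42 for Rpl22l1 and 0.98 for Rpl22. Their coding sequences, of 366 and 384 bases, are 66.9% identical with a longest shared run of 26 bases. The gene lengths implied by the deposited values were 273 bases for Rpl22l1 and 1988 bases for Rpl22, which puts the ratio of FPKM above that of counts. The part of transcript length in the difference between the groups was not tested.

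**Figure D5:**
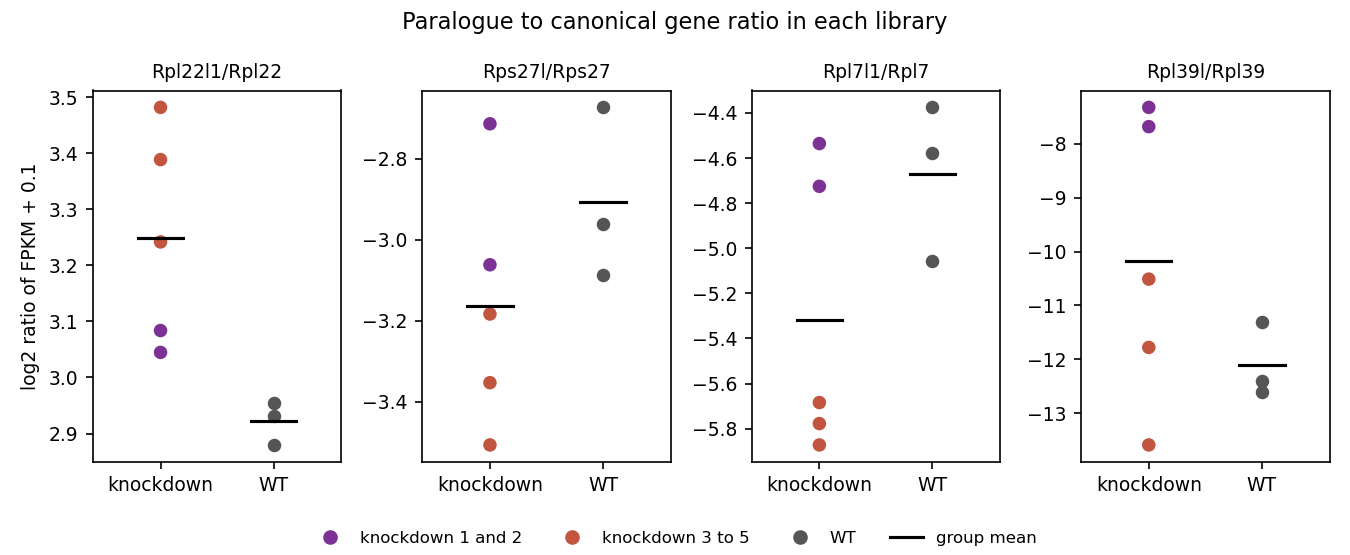
Log2 ratio of FPKM (with 0.1 added) of a paralogue to its canonical gene in each library, for 4 pairs on separate scales, with group means as bars. For Rpl22l1 over Rpl22 the 5 libraries labelled knockdown lie above the 3 WT libraries, and for Rpl7l1 over Rpl7 knockdown 3 to 5 lie below them.

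Rpl7l1 is a relative of Rpl7 whose yeast counterpart takes part in large subunit assembly. It had 180, 182, 109, 86.7 and 70.5 CPM in the libraries labelled knockdown, against 118, 132 and 122 CPM in WT libraries. Knockdown 1 and 2 were above and knockdown 3 to 5 below every WT library, and the log2 fold change with 6 libraries was -0.48 ± 0.19 (adjusted p = 0.107, edgeR). With 8 libraries it was 0.02 ± 0.35. Rpl7 itself had 0.63 ± 0.23 with 6 libraries (adjusted p = 0.0805) and 0.59 ± 0.21 with 8. The FPKM of Rpl7l1 was 3.77%, 4.30%, 1.94%, 1.70% and 1.82% of that of Rpl7 in the libraries labelled knockdown, against 3.00%, 4.81% and 4.19% in WT libraries. The log2 difference of -0.65 over 8 libraries did not pass (exact permutation test, p = 0.214, adjusted 0.321), and it was -1.11 with knockdown 3 to 5, all of which were below all WT libraries.

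Rps27l, a paralogue of Rps27 that p53 induces in human cells, rose by 1.06 ± 0.22 with 6 libraries (adjusted p = 0.0158, edgeR, and 0.0834 without WT 3) and had 1.05 ± 0.22 with 8. Its FPKM was 12.0%, 15.2%, 8.80%, 11.0% and 9.79% of that of Rps27 in the libraries labelled knockdown, against 11.8%, 15.7% and 12.8% in WT libraries. The groups overlapped through knockdown 1 and 2 (log2 difference -0.26, exact permutation test, p = 0.214, adjusted 0.321). With knockdown 3 to 5, all of which were below all WT libraries, the log2 difference was -0.44. The pair is shown because both coding sequences have 252 bases and yet differ at 60, so that reads that cross these letters can be told apart; capitals mark the letters that differ, read 5′ to 3′ from GENCODE transcripts of GRCm38 at chr9:66944624-66949522 (Rps27l) and chr3:90212667-90213648 (Rps27).
Rps27l: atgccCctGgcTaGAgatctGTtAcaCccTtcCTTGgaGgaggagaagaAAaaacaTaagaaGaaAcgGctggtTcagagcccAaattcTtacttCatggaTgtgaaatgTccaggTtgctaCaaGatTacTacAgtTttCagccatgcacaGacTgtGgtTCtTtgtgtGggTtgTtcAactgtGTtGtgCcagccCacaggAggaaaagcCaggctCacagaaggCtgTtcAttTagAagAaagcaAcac
Rps27: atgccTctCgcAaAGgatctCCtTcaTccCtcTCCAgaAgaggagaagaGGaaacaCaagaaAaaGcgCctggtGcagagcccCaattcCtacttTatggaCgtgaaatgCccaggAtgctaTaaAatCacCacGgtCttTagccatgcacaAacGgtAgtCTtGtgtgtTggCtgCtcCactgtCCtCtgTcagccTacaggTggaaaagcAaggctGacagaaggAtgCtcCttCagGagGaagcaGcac
The longest run the sequences share is 11 bases, and they are 76.2% identical.

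Rpl39l, a paralogue of the exit tunnel protein Rpl39 known from mouse testis, was found mainly in the libraries labelled knockdown 1 and 2. It had 87, 76, 23, 6 and 1 counts in the libraries labelled knockdown, against 5, 0 and 0 counts in WT libraries. Knockdown 5 and all WT libraries were near the limit of detection, 3 counts being 0.0966 to 0.155 CPM, and these limits cover counting error only. Its log2 fold change with 8 libraries had a large error (4.64 ± 1.98, adjusted p = 0.264, edgeR), and it did not pass the low-count filter with 6. Relative to Rpl39, its FPKM was 0.479%, 0.612%, 0.0644%, 0.0243% and 0.00459% in the libraries labelled knockdown, against 0.0317%, 0% and 0% in WT libraries (exact permutation test of the log2 ratio, p = 0.357, adjusted 0.429). The level was thus highest in the libraries with the highest leukocyte marker sums, and the part of those cells in it was not tested. Rpl39 had 362, 232, 481, 528 and 617 CPM in the libraries labelled knockdown, against 257, 94.5 and 114 CPM in WT libraries, and rose by 1.81 ± 0.36 with 6 libraries (adjusted p = 0.0154, and 0.0719 without WT 3) and had 1.52 ± 0.45 with 8. Both coding sequences have 153 bases and differ at 23, in capitals, at chr16:10170197-10174911 for Rpl39l and chrX:37082518-37085222 for Rpl39 (GRCm38).
Rpl39l: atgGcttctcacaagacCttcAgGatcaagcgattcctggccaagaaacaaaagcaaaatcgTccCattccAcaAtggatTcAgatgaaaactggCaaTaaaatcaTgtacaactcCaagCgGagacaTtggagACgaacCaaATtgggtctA
Rpl39: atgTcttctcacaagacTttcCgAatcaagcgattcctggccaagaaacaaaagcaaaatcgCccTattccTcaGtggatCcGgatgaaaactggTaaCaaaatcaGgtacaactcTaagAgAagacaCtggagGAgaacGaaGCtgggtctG
They share a longest run of 38 bases, so a read wholly inside it cannot be assigned to either gene, and the identity is 85.0%.

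The other copies had low levels. Rpl3l, a paralogue of Rpl3 used in skeletal and heart muscle, had 2, 0, 2, 5 and 2 counts in the libraries labelled knockdown, against 3, 5 and 4 counts in WT libraries. Rpl10l, a testis copy of Rpl10, had 0 counts in all libraries labelled knockdown, against 1, 0 and 0 counts in WT libraries. At these depths no difference was detectable and neither passed the filter. The exact permutation test of the log2 ratio gave p = 0.571 for Rpl3l to Rpl3 (adjusted 0.571) and p = 0.0357 for Rpl10l to Rpl10 (adjusted 0.107), a ratio set by Rpl10 and the FPKM added, since Rpl10l had a count in 1 library. Rpl32l, which was compared with Rpl32 after the data were seen, stood at 0.277% to 0.311% of the FPKM of Rpl32 in the libraries labelled knockdown, against 0.298% to 0.320% in WT libraries. Rpl32l is a copy of Rpl32, so counts shared between them are uncertain.

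RefSeq promoter records (GRCm38.p6, 250 bases before to 50 after the start) covered 64 of the 84 genes with 76 starts. A run of at least 6 pyrimidines that began with C lay within 20 bases of the start, on the transcript strand, in 44 of the 76 (57.9%), beside 29.4% of all 32851 promoters. CCGGAAG, the core letters bound by Ets factors, was found on either strand in 35.5%, beside 8.86% of all promoters. TATAAA was found in 10.5%, beside 13.6%, and CACGTG, the E-box of Myc, in 10.5%, beside 7.15%. The median log2 fold change with 6 libraries was 1.08 for genes with the pyrimidine run and 0.97 for genes without it. That difference was not tested. Similar shares were called higher, 29 of 41 genes with the run and 14 of 20 without it, beside 11.1% of all genes. With 8 libraries the medians of the same genes were 1.03 with the run and 0.88 without it.

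The 30 bases around an annotated start of each gene, 15 on either side, are shown for 4 genes named above, both genes of the Rpl22 pair and Rpl7l1. Pyrimidine runs are in capitals where the run was found, read 5′ to 3′ on the transcript strand. They lie at chr11:114668565-114668594 (Rpl38, plus strand), chr7:141447636-141447665 (Rplp2, plus), chr3:90213634-90213663 (Rps27, minus), chr4:86857353-86857382 (Rps6, minus), chr3:28805493-28805522 (Rpl22l1, plus), chr4:152325711-152325740 (Rpl22, plus) and chr17:46782642-46782671 (Rpl7l1, minus) of GRCm38.p6.
Rpl38: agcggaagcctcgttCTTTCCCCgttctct
Rplp2: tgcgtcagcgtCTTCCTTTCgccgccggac
Rps27: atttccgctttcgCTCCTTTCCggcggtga
Rps6: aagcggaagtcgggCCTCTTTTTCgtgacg
Rpl22l1: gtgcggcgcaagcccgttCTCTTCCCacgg
Rpl22: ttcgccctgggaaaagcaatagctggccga
Rpl7l1: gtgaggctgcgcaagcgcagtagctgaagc
No such run was found in the printed window of Rpl22, which rose, or of Rpl7l1, which did not. The printed windows of Rpl22 and Rpl38 lie inside the annotated genes, which begin at chr4:152324436 and chr11:114667818. The bases around those gene starts are not shown.

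Of 5 cytosolic ribosome genes outside the naming rule, 4 rose in the 6 libraries and none fell, beside 11.1% and 9.37% of all genes. The median log2 fold change of the 5 was 1.24, beside 0.02 for all genes. The median was 1.34 with 8 libraries, beside 0.07 for all genes. Fau, which encodes a small subunit protein fused to a ubiquitin-like peptide, had 1187, 875, 754, 979 and 878 CPM in the libraries labelled knockdown, against 533, 274 and 302 CPM in WT libraries, without overlap. It rose by 1.24 ± 0.27 (adjusted p = 0.0204, edgeR), and Rpl36al, a copy of a large subunit gene, by 1.30 ± 0.20 (adjusted p = 0.0093). Rps27rt, a retrogene copy of Rps27, rose by 1.71 ± 0.32 (adjusted p = 0.0137) and Rack1, a scaffold on the small subunit head, by 0.81 ± 0.22 (adjusted p = 0.0365). Without WT 3 the adjusted p was 0.0936 for Fau, 0.0663 for Rps27rt and 0.151 for Rack1, and without knockdown 4 it was 0.0563 for Rpl36al. The log2 fold changes with 8 libraries were 1.34 for Fau, 1.41 for Rpl36al, 1.56 for Rps27rt and 0.81 for Rack1.

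Of 22 other genes with TOP messages, 5 rose (22.7%) and 1 fell (4.55%) in the 6 libraries, beside 11.1% higher and 9.37% lower over all genes, with a median log2 fold change of 0.22. Tpt1, the translationally controlled tumour protein, rose by 1.47 ± 0.32 (adjusted p = 0.0190), Eef1b2, an exchange factor of elongation, by 1.41 ± 0.28 (adjusted p = 0.0148), Nap1l1, a histone chaperone, by 1.00 ± 0.23 (adjusted p = 0.0226) and Btf3, of the nascent chain complex, by 0.69 ± 0.19 (adjusted p = 0.0388), all by edgeR. Pabpc1, the cytoplasmic poly(A)-binding protein, was the gene that fell (-0.70 ± 0.20, adjusted p = 0.0395). Of 15 initiation factors, mostly without a TOP motif, 3 rose and 3 fell, beside the same 11.1% and 9.37%, with a median of -0.38. Other initiation factors were counted among the 22 TOP genes. Eif5b, which joins the subunits, rose by 1.26 ± 0.31 (adjusted p = 0.0259), while Eif4g1, the scaffold of the cap complex, fell by 0.84 on the log2 scale (adjusted p = 0.0141). None of these 7 calls held with each library left out: the highest adjusted p was 0.0866 for Tpt1, 0.101 for Nap1l1, 0.166 for Btf3 and 0.0716 for Eif4g1 without WT 3, and 0.0745 for Eef1b2, 0.157 for Pabpc1 and 0.10 for Eif5b without knockdown 4. With 8 libraries the log2 fold changes were 1.17 for Tpt1, 1.04 for Eef1b2, 0.64 for Nap1l1, 0.62 for Btf3, 0.96 for Eif5b and -0.71 for Eif4g1, while that of Pabpc1 turned to 0.03. The list medians were then 0.24 for the TOP genes and -0.21 for the initiation factors, beside 0.07 for all genes.

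Of 47 ribosome biogenesis genes, 2 rose (4.26%) and 5 fell (10.6%) in the 6 libraries, with a median log2 fold change of -0.23. Over all genes 11.1% rose and 9.37% fell, so the share that fell was near that of all genes. Nop10, a small protein of the pseudouridylation particle, rose by 1.12 ± 0.21 (adjusted p = 0.0136, edgeR). Bop1, a large subunit processing factor, had -0.91 ± 0.17 (adjusted p = 0.0137), Rrn3, an initiation factor of RNA polymerase I, -0.87 ± 0.18 (adjusted p = 0.0170) and Utp4, of the small subunit processome, -1.21 ± 0.28 (adjusted p = 0.0220), all lower. The median log2 fold change of 16 genes of mTOR complex 1, its regulators and targets, and Myc factors was -0.04. None of the 16 rose and 3 fell, beside the same 11.1% and 9.37%. They were Mycn, which drives ribosome production in neural progenitors (-1.34 ± 0.19, adjusted p = 0.0065), Rps6kb2, an S6 kinase (-0.80 ± 0.19, adjusted p = 0.0236), and Mlst8, a subunit of both mTOR complexes (-0.82 ± 0.20, adjusted p = 0.0276). Mycn had 0.979, 0.330, 16.1, 17.5 and 20.8 CPM in the libraries labelled knockdown, against 43.1, 48.7 and 46.1 CPM in WT libraries. The progenitor marker sums were also lowest in knockdown 1 and 2 and highest in WT, and the part of those cells in the level of Mycn was not tested. Mycn held with each library left out, at an adjusted p of up to 0.0494, while the highest was 0.0719 for Nop10 without WT 3, 0.0712 for Bop1, 0.0778 for Rrn3, 0.0976 for Utp4 and 0.104 for Rps6kb2 without knockdown 4, and 0.119 for Mlst8 without WT 2. Over all 8 libraries the log2 fold changes were 1.04 for Nop10, -0.41 for Bop1, -0.78 for Rrn3, -0.67 for Utp4, -2.04 for Mycn, -0.39 for Rps6kb2 and -0.75 for Mlst8, and none of these 5 lists had a gene past the threshold by edgeR. The list medians were then -0.02 for the biogenesis genes and 0.06 for the mTOR and Myc genes, beside 0.07 for all genes.

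Markers of other cell types also differed between the libraries compared. Summed CPM of 8 gut mesenchyme markers was 64.7 to 491 in the libraries labelled knockdown 1 and 2 and 5027 to 5526 in knockdown 3 to 5, against 2545 to 3804 in WT libraries. For 8 endothelial markers it was 74.6 to 83.9 and 103 to 185, against 453 to 654 in WT. For 8 erythroid markers it was 90.0 to 133, with Hbb-bh1 at 0, and 1947 to 7403, against 3362 to 7982 in WT, and for 6 epithelial markers 12.8 to 22.3 and 300 to 1308, against 320 to 1070 in WT. In the 6 libraries 10 of 12 leukocyte markers rose, 8 of 11 progenitor and 4 of 8 neuron markers fell, 8 of 8 endothelial markers fell and 5 of 8 mesenchyme markers rose, beside 11.1% higher and 9.37% lower over all genes. Of these calls, 7 leukocyte, 5 progenitor, 0 neuron, 2 endothelial (Cdh5 and Tie1) and 1 mesenchyme (Col1a2) held with each library left out in turn. Of 8 erythroid markers 2 fell, neither of which held in this way, and of 6 epithelial markers none passed. The part of these cell types in the levels of the ribosomal protein genes was not tested.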

How the data were processed

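RNA of the sorted cells was made into cDNA with Smart-seq2, per the labels' protocols, which keeps neither strand nor molecule identity. HISAT, Bowtie2 and GRCm38.p6 were named without versions, per the submitters' processing notes. The expected counts were estimated by the authors and deposited unnormalised, per the file headers; 17.6% to 19.8% were not whole in a library, within 0.005. FPKM, scaled to gene length and depth, and TPM, scaled to 1000000, were computed by the authors and deposited, per the file headers. The normalised counts, a signal, were made by the authors and deposited, and were not used. A total of 0 columns came from outside the series.

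Expected counts were rounded, filtered with filterByExpr, scaled by TMM and fitted over the whole table with edgeR 4.0.16 in R 4.3.3 (robust quasi-likelihood F test, two-sided, p adjusted over all genes). CPM in the text used the TMM factors of 8 libraries. All pairs of libraries differed by more than counting noise (chi-square per degree of freedom of 30.6 or more). Medians and shares were given without a test. Paralogue ratios used FPKM plus 0.1. Alternatives were DESeq2 1.42.0, limma 3.58.1 with voom or log2 FPKM, other scalings and filters, a replicate block, and each library left out. The fits were tested on simulated data with set fold changes, which held no split among the libraries labelled knockdown such as that seen here. Gene length was the count divided by FPKM and depth; coding length came from GENCODE for GRCm38 and promoters from RefSeq GRCm38.p6, where several other motifs were counted before those shown were chosen.

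The genes, lists, alternatives and the omission of the libraries labelled knockdown 1 and 2 were chosen with earlier results of these data known. The naming rule took, in each subunit, the 5 genes with the smallest and the 3 with the largest p in 6 libraries, the stalk genes, 7 genes of known roles, every paralogue pair, and the most and least abundant gene, and up to 4 genes of each other list; Rpl4, Rpl8, Rpl18, Rpl36 and Rpl32l were named after their values were seen. The values of some single genes are not reported here.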

Additional observations from a re-analysis of the deposited data

Results flagged for a closer look

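In the library labelled knockdown 5, Rps2 had 2040 CPM, far from the other 4 libraries labelled knockdown, with a gap to the nearest of them of 0.772 of the group's range, above the critical value for 5 samples. Among 39 sets of values examined in this way it was the only one. Chance alone flags about 1 set in 20, so 1 flag among 39 sets is no more than chance gives.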

How the results depend on the processing

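Depth was not the limit for 81 of the 84 genes, which had at least 3 counts in every library, whereas Rpl39l, Rpl3l and Rpl10l were at the counting limit in some libraries. With 6 libraries 54 to 57 ribosomal protein genes rose under other scalings and filters and on log2 FPKM. Over all genes 8.1% to 11.9% rose there. DESeq2 called 67 and voom 74, beside 16.2% and 23.3% of all genes. Leaving out a library gave 1 to 59, beside 0.673% to 19.2%. The 56 calls were all shared with DESeq2 and voom, and 53 with log2 FPKM. Ribosomal protein genes that fell numbered 2 by voom (Rpl7l1 and Rpl4) and 0 to 3 with a library left out. Over all genes 22.2% fell by voom and 0.492% to 19.6% with a library left out. With 8 libraries DESeq2 called 63 and voom 71 higher against 0 by edgeR, beside 10.5%, 12.6% and 0% of all genes. The median log2 fold change of ribosomal protein genes was 0.81 to 1.24 with a library left out. Without a composition factor the median of all genes in 8 libraries moved to -0.17, and on log2(FPKM + 1) to -0.21; the median of ribosomal protein genes minus that of all genes was 0.88 and 0.87 there, against 0.87 with TMM. Over all genes in 6 libraries the split was 1673 higher and 1417 lower with TMM, against 1225 higher and 1965 lower on log2(FPKM + 1). Same-numbered libraries did not deviate together (correlations -0.0274, 0.0402 and -0.0449). The deviations of the libraries labelled knockdown were taken from a mean that included knockdown 1 and 2, which stood apart. These correlations therefore cannot decide whether the numbers pair the libraries. The replicate block in 8 libraries called 0 genes, with a median of 0.88, and no block could be fitted with 6, where the groups share 1 number. Rplp0 turned to -0.065 without a composition factor, -0.15 on log2 FPKM, and ranged -0.29 to 0.27 with a library left out. The log2 ratio of Rpl3l to Rpl3 differed by -0.30 and turned to 0.17 with 1 FPKM added and 0.16 without knockdown 1 and 2, at counts of 0 to 5. The ratio of large to small subunit differed by -0.043 in TPM and by -0.159 in expected counts. The causes were not tested.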
